A study of Mus musculus with 9 samples.

Results

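The ciliary transport and transition zone genes described here encode the machinery that builds, loads and gates the primary cilium. They were chosen by name: every listed gene called *Ift*, *Bbs* or *Nphp* with a number, *Tctn1* to *Tctn3*, *B9d1* and *B9d2*, together with *Mks1*, *Cc2d2a*, *Kif3a*, *Kif3b*, *Kif17*, *Arl13b*, *Rpgrip1l*, *Cep290*, *Tmem67*, *Ahi1*, *Dync2h1*, *Foxj1*, *Rfx2* and *Rfx3*. This rule found 41 of the 14670 genes in the table, and of the 14 genes that it spells out singly, *Kif17* was not listed. By role, 10 members belong to intraflagellar transport complex B, 3 to complex A, 3 are motor subunits, 7 are Bardet-Biedl syndrome (BBS) genes, 14 belong to the transition zone, 1 is a ciliary membrane GTPase and 3 are transcription factors.

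Primary cilia are single antenna-like projections that grow from a centriole docked at the cell surface, and in the embryonic cortex the apical progenitors extend theirs into the ventricle. Kinesin motors carry trains of the B complex to the tip, a dynein carries A complex trains back, the BBSome moves membrane proteins, and the transition zone at the base decides what enters. Cilia receive Hedgehog and other signals in this tissue, and inherited loss of such genes causes the ciliopathies, many with brain malformations.

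RNA-seq was carried out on microdissected cerebral cortex at embryonic day (E) 16.5 from mice on a mixed C57Bl/6 and CD1 background. Control animals carry the genotype +/+ in the labels, whereas the methods describe them as wild-type or heterozygous littermates. The Fzd3 -/- mutant lacks a Frizzled receptor and the Celsr3 -/- mutant lacks a seven-pass cadherin, which act together in planar cell polarity and axon guidance, and comparing both with control asks what each loss does to the cortical transcriptome. There were 3 libraries of each genotype, numbered 1, 2 and 3 for control, 1, 2 and 3 for Fzd3 and 1, 2 and 4 for Celsr3, and values for single libraries are given in that order throughout. The labels state Trizol as the RNA reagent and the methods an RNeasy kit. The methods count 3 cortical tissue samples of each genotype and at least 3 animals in animal experiments, but no label assigns a library to an embryo. *P* values therefore measure the spread between these samples.

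Values are CPM, read counts scaled to the size of each library, and the smallest steps between them correspond to 39857305 to 69600589 reads on the listed genes per library. At that depth 3 reads equal 0.0427 to 0.0752 CPM, which covers counting error only. Differences are on the scale of log2(CPM + 0.5), from a single limma fit of all 9 libraries and 14670 genes. A gene is said to have risen or fallen when its Benjamini-Hochberg adjusted *P* over all genes was below 0.05. Both mutants were compared with the same controls, so these comparisons are not independent of each other.

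The mutated genes were examined first. For *Celsr3*, the controls had 196, 243 and 214 CPM, the Fzd3 mutants 253, 213 and 255 CPM and the Celsr3 mutants 122, 139 and 118 CPM. All 3 Celsr3 mutant libraries lay below the other 6, and the fall against control was 0.78 (s.e. 0.0910, adjusted *P* = 0.0018). For *Fzd3*, the controls had 58.0, 67.7 and 46.9 CPM, the Fzd3 mutants 46.5, 39.8 and 59.6 CPM and the Celsr3 mutants 52.1, 61.1 and 54.8 CPM. The genotypes overlapped, with a difference between Fzd3 mutant and control of −0.24 (s.e. 0.147, adjusted *P* = 0.24). The text of the study gives exon 3 as the part missing from its Fzd3 mutant allele, in the account of the conditional mutant, and the table holds 1 value for the whole gene. A transcript without that exon would still be counted, so this value does not check the label.

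Some libraries stood apart from others of the same genotype, and the causes were not tested. The X-inactivation transcript *Xist* was at 0.803 CPM in control 3 and 0.744 CPM in Celsr3 mutant 2 but at 806 to 1147 CPM in the other 7 libraries, which include all 3 Fzd3 mutants. Celsr3 mutant 4 held more meningeal RNA than the others. The fibroblast collagen gene *Col1a2* was at 2.004, 3.78 and 3.54 CPM in control cortex, 3.27, 3.63 and 2.21 CPM in the Fzd3 mutants and 3.49, 2.25 and 49.4 CPM in the Celsr3 mutants, so that only Celsr3 mutant 4 of these 9 libraries exceeded 4 CPM. The 4 listed meningeal markers summed to 6.47, 11.5 and 6.97 CPM in control cortex, 16.3, 16.9 and 11.7 CPM in the Fzd3 mutants and 8.32, 10.4 and 87.1 CPM in the Celsr3 mutants, with *Col1a2* the most abundant by CPM in the controls, and *Lum* was not listed. Member counts without Celsr3 mutant 4, and without both *Xist*-poor libraries, are given with the results. The 7 defining markers of cortical tissue, which include *Emx1*, *Emx2*, *Lhx2*, *Neurod6*, *Neurod2* and *Tbr1*, were listed and above 0 in every library, led by *Neurod6* at 929, 908 and 872 CPM in control cortex, 758, 787 and 780.5 CPM in the Fzd3 mutants and 947, 932 and 939 CPM in the Celsr3 mutants.

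All 41 members exceeded a mean of 0.5 CPM, and none was at 0 in any library. Levels of different genes were compared as CPM per kb of annotated exons in the controls (mean ± s.d., n = 3). *Kif3a*, a subunit of the heterotrimeric kinesin-2 that drives anterograde transport and also carries cargo in axons, was the most abundant at 47.4 ± 1.31 CPM per kb. *Ift20*, a small B complex subunit also found at the Golgi, followed at 22.7 ± 3.12 CPM per kb. *Ahi1*, the Joubert syndrome gene for jouberin, was at 19.1 ± 1.20 CPM per kb, and the libraries of *Ift20* and *Ahi1* overlapped on this scale. *Kif3b*, the partner motor subunit, was at 15.6 ± 0.724 CPM per kb, whereas the heavy chain of the return dynein, *Dync2h1*, was at 3.54 ± 0.209 CPM per kb.

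The lower end of the order held the ciliogenic transcription factors. *Rfx2* was at 0.515 ± 0.116 CPM per kb and *Foxj1*, the regulator of motile cilia, at 0.946 ± 0.0173 CPM per kb. These were the lowest of the 41 members, followed by *Tctn1*, a tectonic of the transition zone, at 1.19 ± 0.0100 CPM per kb. A related factor, *Rfx3*, was far higher at 7.93 ± 0.344 CPM per kb. Within the other roles, *Bbs4* was the highest BBS gene at 6.75 ± 0.502 CPM per kb and *Bbs10*, a chaperonin-like assembly factor, the lowest at 1.48 ± 0.105 CPM per kb. The A complex ran from *Ift43* at 11.5 ± 0.155 to *Ift122* at 4.05 ± 0.393 CPM per kb, and *Ift80* was the lowest B complex subunit at 2.19 ± 0.0310 CPM per kb. *Arl13b*, the GTPase commonly stained to mark the ciliary membrane, was at 5.04 ± 0.531 CPM per kb. Ranked by CPM without length, 5 of the first 10 members were shared with the order per kb.

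**Figure D1:**
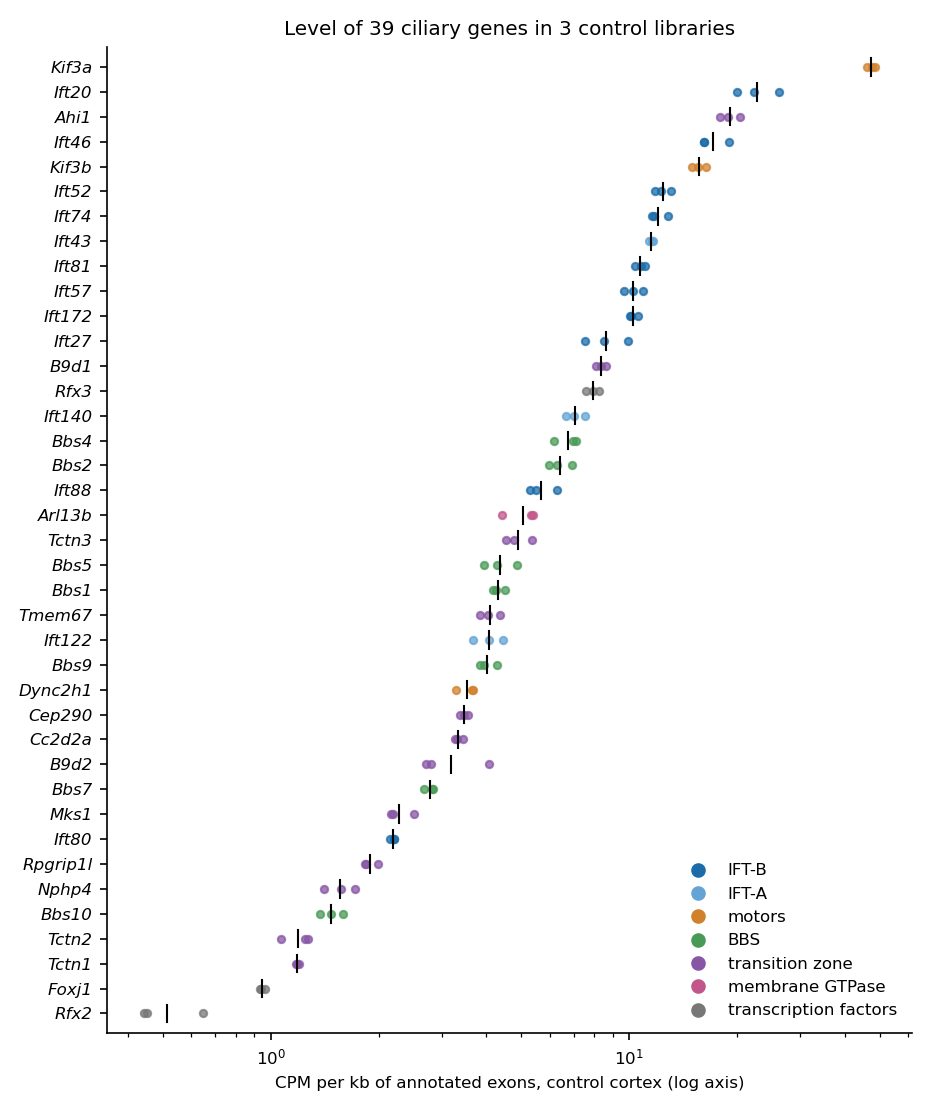
Level of 39 of the 41 members in the 3 control libraries (points, with the mean as a bar) as CPM per kb of annotated exons on a log axis, coloured by role. *Kif3a* is highest at a mean of 47.4 CPM per kb and *Rfx2* lowest at 0.515 CPM per kb.

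RFX factors are known to bind X-box elements in the promoters of ciliary genes, and the letters shared by both arms of such elements were therefore looked for. Promoters of 300 bases, from 250 before to 50 after each start, were taken from RefSeq (GRCm38.p6) and matched 34 of the 41 members with 38 promoters. The motif GTTNCC, searched on both strands, was present in 34 of these 38 promoters (89.5%), against 45.3% of all 32851 promoters and 46.4% of those of listed genes. It was present in 90.9% of the 11 promoters of members that rose or fell in the Fzd3 mutant and in 88.9% of the 27 others, so its presence did not separate them. A pair facing each other across 2 bases, which contains the shorter motif on both strands, occurred in 4 member promoters (10.5%, against 0.451% of all). A pair across 1 base occurred in 2 (5.26%, against 0.271%). Of the 11 promoters of members that rose or fell, 1 held the pair across 2 bases and 2 the pair across 1 base. Of the 27 others, 3 and 0 did. These counts are small, and the difference was not tested. The 6 windows with a pair are shown 5′ to 3′ on the strand of the gene, with the paired motif in capitals. They hold the most complete matches and include *Ahi1*, *Bbs7*, *Ift57* and *Tctn3*, whose values are described with the comparisons. A match describes these letters and not occupancy by a factor. They lie at chr10:20952560-20952589 (plus strand) for *Ahi1*, chr3:36613467-36613540 (minus strand) for *Bbs7*, chr11:87853181-87853214 (plus strand) for *Mks1*, chr5:122264411-122264432 (minus strand) for *Tctn1*, chr16:49699204-49699276 (plus strand) for *Ift57* and chr19:40612329-40612401 (minus strand) for *Tctn3*. The pair begins at base 21 from the start for *Ahi1* and at base 36 for *Tctn1*. It begins upstream for the others, at base −121 for *Bbs7*, −24 for *Mks1*, −60 for *Ift57* and −140 for *Tctn3*. *Bbs2* and *Bbs9* held no GTTNCC in their windows.
Ahi1: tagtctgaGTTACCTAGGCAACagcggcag
Bbs7: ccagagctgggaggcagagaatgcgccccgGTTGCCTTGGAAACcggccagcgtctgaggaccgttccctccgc
Mks1: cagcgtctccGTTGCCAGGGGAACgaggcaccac
Tctn1: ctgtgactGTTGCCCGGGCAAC
Ift57: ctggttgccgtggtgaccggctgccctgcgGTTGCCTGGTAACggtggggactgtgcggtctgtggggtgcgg
Tctn3: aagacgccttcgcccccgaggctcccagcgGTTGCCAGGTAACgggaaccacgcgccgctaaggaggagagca
The members without an entry include *Foxj1*, *Ift80*, *Ift81*, *Ift122* and *Tmem67*.

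In the Fzd3 mutant the ciliary genes moved about as often as genes in general, and in both directions. Of the 41 members, 13 (31.7%) rose or fell against control, beside 29.8% of all 14670 genes. There were 8 that rose (19.5%, beside 15.0% of all genes) and 5 that fell (12.2%, beside 14.8% of all genes). The 3 Fzd3 libraries lay entirely above or below the 3 controls for 18 members (43.9%), again near the 43.8% among all genes. These shares are close to the background and are not a result about the members as a group. The median log2 difference of the members was 0.06, beside −0.00 over all genes, and the median absolute difference 0.16 beside 0.14. Member mRNA summed to 1506, 1486 and 1559 CPM in the controls, 1596, 1603 and 1645 CPM in the Fzd3 mutants and 1474, 1515 and 1490 CPM in the Celsr3 mutants. Every Fzd3 library thus had a larger sum than each of the other 6. Abundant members weigh most in such a sum, and mean *Ahi1* alone was 134 CPM in the controls and 180 CPM in the Fzd3 mutants. Of the 41 log2 differences, 24 were above 0 and 17 below. A change in the share of ciliated cells and a change of mRNA per cell cannot be told apart in bulk tissue.

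The count in the Fzd3 mutant depended on single libraries. It was 5 without control 2 (12.2%, beside 21.3% of all genes in that fit), 8 without Fzd3 mutant 1 (19.5%, beside 20.2%) and 8 without Fzd3 mutant 2 (19.5%, beside 21.6%). It was 9 to 11 when any one of the other 6 was left out. Fewer genes of all kinds were thus called without each of these 3 libraries, so the drop is shared at least in part with genes in general. Without the *Xist*-poor libraries, a setting added after the data were seen, it was 11 (26.8%, beside 26.6% of all genes). It was also 11 without Celsr3 mutant 4 (26.8%, beside 29.2%), and it was 7 without moderation (17.1%, beside 22.5%). Only *Ahi1*, *Bbs2*, *Ift57* and *Ift80* among the 13 passed the threshold under all 20 alternative settings tried, and no called member changed direction under any of them.

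**Figure D2:**
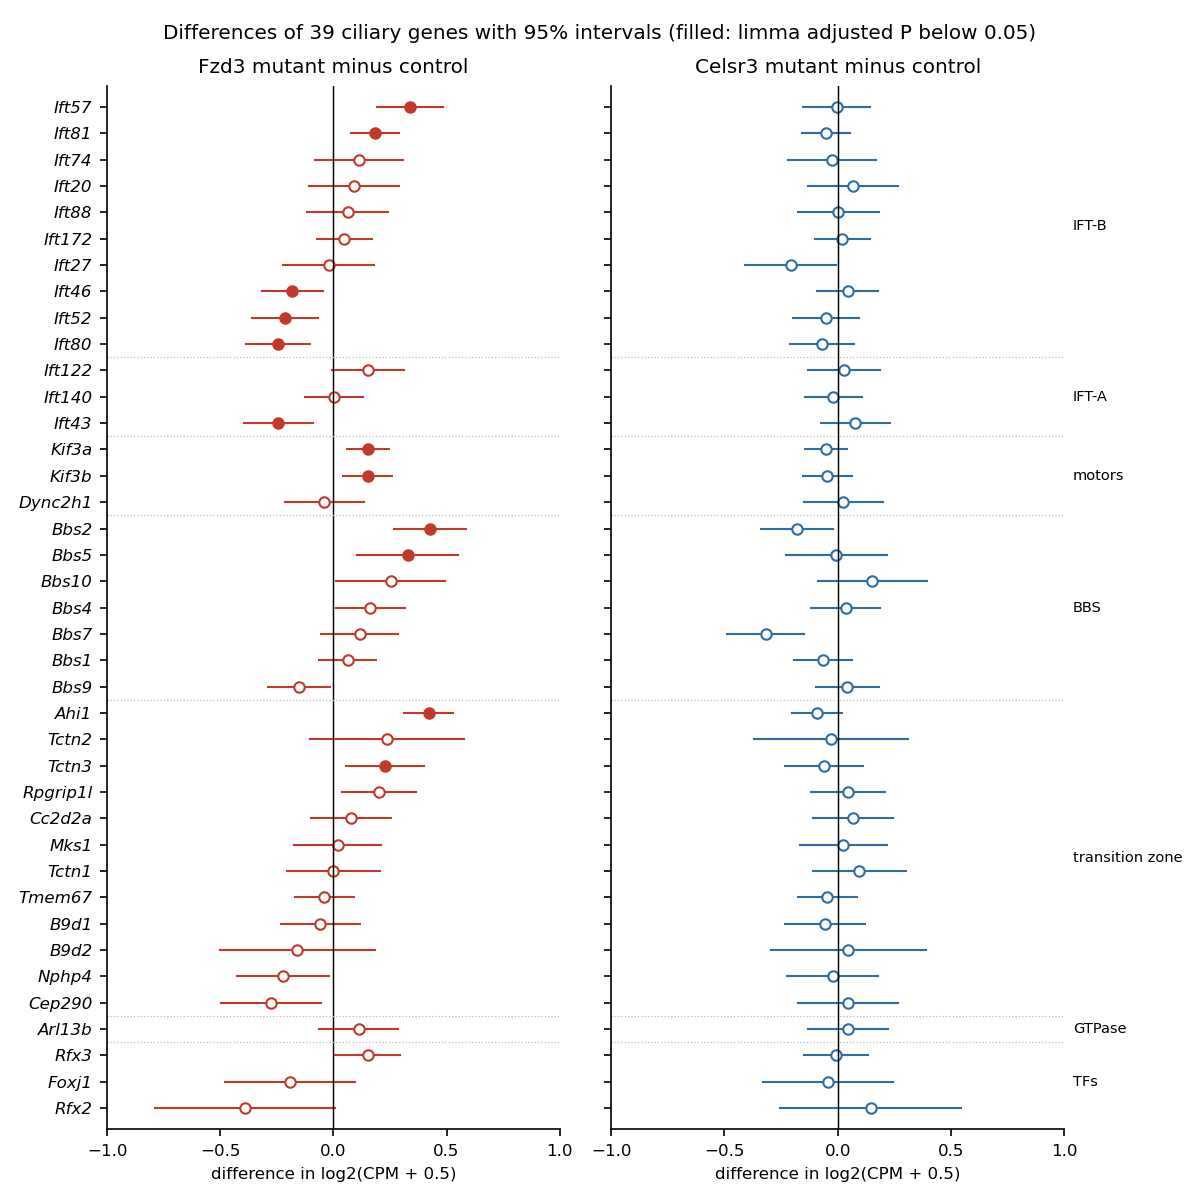
Difference in log2(CPM + 0.5) of 39 of the 41 members, Fzd3 mutant minus control (left) and Celsr3 mutant minus control (right), with 95% limma intervals and filled points where the adjusted *P* was below 0.05. *Bbs2* (0.43) and *Ahi1* (0.42) lie furthest to the right of 0 in the Fzd3 mutant, and no point is filled for the Celsr3 mutant.

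Among the 10 subunits of the B complex, which carries tubulin and other cargo outwards, 2 rose (20%, beside 15.0% of all genes) and 3 fell (30%, beside 14.8%) in the Fzd3 mutant, with a median of 0.06. With 10 genes, these shares describe the single subunits. *Ift57*, a peripheral subunit of this complex, was at 29.4, 27.7 and 31.2 CPM in control cortex, 36.5, 36.7 and 38.8 CPM in the Fzd3 mutants and 28.4, 31.7 and 27.9 CPM in the Celsr3 mutants. All 3 Fzd3 libraries exceeded the other 6, and the rise against control was 0.34 (s.e. 0.0667, adjusted *P* = 0.00334). Its exons overlap those of the antisense gene *Gm15518* over 7.86% of their length, and this gene was at 3.44 CPM on average in the controls and 4.46 CPM in the Fzd3 mutants. *Ift80*, another peripheral subunit and a skeletal ciliopathy gene, was at 27.4, 27.5 and 26.8 CPM in control cortex, 22.9, 22.8 and 22.9 CPM in the Fzd3 mutants and 23.9, 26.2 and 27.8 CPM in the Celsr3 mutants. The Fzd3 libraries were nearly equal to each other and lay below all controls and all Celsr3 libraries, with a fall against control of 0.25 (s.e. 0.0636, adjusted *P* = 0.0141).

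Smaller differences were found for *Ift81*, *Ift52* and *Ift46*, which are named because they complete the 5 calls of the B complex, after their values were seen. The core subunit *Ift81* rose by 0.18 (s.e. 0.0489, adjusted *P* = 0.016), and the call was lost without control 2 (adjusted *P* = 0.0612) or Fzd3 mutant 2 (0.0599). *Ift52* fell, at −0.21 (s.e. 0.0669, adjusted *P* = 0.0327), with the call lost without control 1 (adjusted *P* = 0.115), control 2 (0.0702), Fzd3 mutant 1 (0.0966), Fzd3 mutant 2 (0.0692) or Fzd3 mutant 3 (0.0568), and without moderation (0.0658). For *Ift46* the fall was 0.18 (s.e. 0.0620, adjusted *P* = 0.0475), and it was not called without control 3 (adjusted *P* = 0.136), Fzd3 mutant 1 (0.0641), Fzd3 mutant 2 (0.0897), Fzd3 mutant 3 (0.134), Celsr3 mutant 1 (0.0608), Celsr3 mutant 2 (0.0623) or Celsr3 mutant 4 (0.0572), and after rescaling to equal totals (0.0752), with only the 6 libraries compared (0.0771), with the replicate block (0.0971), without the variance trend (0.0943), without moderation (0.117) or without the *Xist*-poor libraries (0.165). The remaining 5 (*Ift20*, *Ift27*, *Ift74*, *Ift88* and *Ift172*) had differences of −0.02 to 0.11 and did not pass the threshold. *Ift88*, the subunit most often mutated to remove cilia in mice, was at 25.5, 24.4 and 29.1 CPM in control cortex, 26.7, 26.8 and 29.0 CPM in the Fzd3 mutants and 26.2, 28.6 and 24.4 CPM in the Celsr3 mutants. Its genotypes overlapped, with an interval for Fzd3 mutant minus control of −0.11 to 0.24. Of the 3 A complex subunits, which serve the return journey, only *Ift43* fell. It was at 18.7, 19.2 and 19.1 CPM in control cortex, 16.3, 16.3 and 15.4 CPM in the Fzd3 mutants and 21.0, 18.5 and 20.9 CPM in the Celsr3 mutants. The Fzd3 libraries were the 3 lowest, and the difference from control was −0.24 (s.e. 0.0693, adjusted *P* = 0.0216), a call lost without control 2 (adjusted *P* = 0.063) or Fzd3 mutant 3 (0.0583), and with the replicate block (0.0541). *Ift122* did not pass, at 0.15 (s.e. 0.0724, adjusted *P* = 0.131), except without control 3 (adjusted *P* = 0.0353) and without the *Xist*-poor libraries (0.0467).

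The transition zone held the member with the smallest adjusted *P*. Of its 14 members, 2 rose (14.3%, beside 15.0% of all genes), and the median was −0.02. *Ahi1* was at 133, 126 and 143 CPM in control cortex, 177, 183 and 179 CPM in the Fzd3 mutants and 121, 126 and 130.2 CPM in the Celsr3 mutants. The lowest Fzd3 library was well above the highest of the other 6, and the rise was 0.42 (s.e. 0.0498, adjusted *P* = 0.000174). It passed in each of the 20 alternatives, with adjusted *P* from 0.000133 to 0.00589. *Tctn3*, a tectonic required for Hedgehog responses, was at 15.6, 14.8 and 17.6 CPM in control cortex, 18.7, 20.0 and 17.7 CPM in the Fzd3 mutants and 15.3, 15.2 and 15.3 CPM in the Celsr3 mutants. The lowest Fzd3 library was only just above the highest control, and the rise of 0.23 (s.e. 0.0785, adjusted *P* = 0.0486) was lost without control 1 (adjusted *P* = 0.123), control 2 (0.168), Fzd3 mutant 1 (0.105), Fzd3 mutant 2 (0.166), Celsr3 mutant 1 (0.0604), Celsr3 mutant 2 (0.0671) or Celsr3 mutant 4 (0.0613), and with only the 6 libraries compared (0.0802), with the replicate block (0.109) or without moderation (0.0667).

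Most of the other transition zone genes did not pass the threshold. *Cep290*, a large scaffold of the transition zone, was at 41.2, 40.3 and 39.2 CPM in control cortex, 29.7, 30.7 and 39.97 CPM in the Fzd3 mutants and 38.5, 45.2 and 41.1 CPM in the Celsr3 mutants. Fzd3 mutants 1 and 2 were far below and Fzd3 mutant 3 within the control range, and the difference was −0.27 (s.e. 0.1001, adjusted *P* = 0.06). It passed without Fzd3 mutant 3 (adjusted *P* = 0.00217). *Rpgrip1l* passed without Fzd3 mutant 2 (adjusted *P* = 0.0156) and after rescaling to equal totals (0.0458). These 2 genes are named because leaving out 1 library changed their call, and so were chosen after their values were seen. The exons of *Cep290* overlap those of *4930430F08Rik* on the opposite strand over 7.58% of their length. That other gene was at 14.3 CPM on average in the controls and 14.9 CPM in the Fzd3 mutants. *Tctn1* was at 9.94, 9.82 and 9.78 CPM in control cortex, 10.1, 9.09 and 10.4 CPM in the Fzd3 mutants and 9.32, 11.1 and 11.3 CPM in the Celsr3 mutants. Its genotypes overlapped, with an interval of −0.21 to 0.21. The exons of *Tctn1* share 19.0% of their length with *Hvcn1* on the opposite strand, which limits how its value can be read.

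Among the 7 BBS genes, whose products assemble or form the coat that moves receptors in the ciliary membrane, 2 rose (28.6%, beside 15.0% of all genes) and 0 fell in the Fzd3 mutant by limma, and the share called in either direction was near the 29.8% of all genes. An unadjusted *P* below 0.05 was reached by 5 of the 7, beside 41.4% of all genes. *Bbs2*, a core subunit of the BBSome, was at 20.8, 19.8 and 23.0 CPM in control cortex, 28.6, 29.3 and 27.9 CPM in the Fzd3 mutants and 20.0, 17.9 and 18.0 CPM in the Celsr3 mutants. Fzd3 libraries were uniformly the 3 highest, and the rise over control was 0.43 (s.e. 0.0724, adjusted *P* = 0.00146), the largest log2 difference of any member. *Bbs5*, the subunit that binds phosphoinositides, was at 11.9, 10.5 and 9.66 CPM in control cortex, 12.6, 15.2 and 12.8 CPM in the Fzd3 mutants and 10.1, 10.4 and 11.3 CPM in the Celsr3 mutants. The Fzd3 libraries were again the 3 highest, Fzd3 mutant 2 most of all. Its rise of 0.33 (s.e. 0.102, adjusted *P* = 0.0316) was lost without control 2 (adjusted *P* = 0.084), control 3 (0.0959) or Fzd3 mutant 2 (0.126), and without moderation (0.0697) or without the *Xist*-poor libraries (0.122). *Bbs4* did not pass, at 0.16 (s.e. 0.0694, adjusted *P* = 0.0992), and nor did *Bbs10*, at 0.25 (s.e. 0.110, adjusted *P* = 0.106).

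Both kinesin-2 motor subunits rose slightly in the Fzd3 mutant, where 15.0% of all genes rose. *Kif3a* was at 170.4, 165 and 174 CPM in control cortex, 183, 189 and 193 CPM in the Fzd3 mutants and 171, 160.2 and 159.9 CPM in the Celsr3 mutants. Each Fzd3 library was above every other library, and the rise was 0.15 (s.e. 0.0422, adjusted *P* = 0.0198), lost without control 2 (adjusted *P* = 0.0723), Fzd3 mutant 2 (0.0573) or Fzd3 mutant 3 (0.0565), and without the variance trend (0.0545). *Kif3b* was at 87.9, 84.1 and 92.2 CPM in control cortex, 101, 94.5 and 98.3 CPM in the Fzd3 mutants and 89.1, 85.0 and 81.8 CPM in the Celsr3 mutants. Its Fzd3 libraries were likewise the 3 highest, and the rise of 0.15 (s.e. 0.0497, adjusted *P* = 0.0397) was lost without control 1 (adjusted *P* = 0.0894), control 2 (0.14), Fzd3 mutant 1 (0.133), Fzd3 mutant 3 (0.0787) or Celsr3 mutant 2 (0.0577), and with only the 6 libraries compared (0.0529), with the replicate block (0.0507), without the variance trend (0.0781) or without moderation (0.0694). *Dync2h1* was at 59.9, 59.7 and 53.9 CPM in control cortex, 55.3, 50.6 and 63.3 CPM in the Fzd3 mutants and 61.1, 60.4 and 55.2 CPM in the Celsr3 mutants. Here the genotypes overlapped, with an interval for Fzd3 mutant minus control of −0.21 to 0.13. *Arl13b* also overlapped, at 27.4, 22.5 and 27.0 CPM in control cortex, 29.7, 26.1 and 27.2 CPM in the Fzd3 mutants and 25.9, 26.5 and 26.7 CPM in the Celsr3 mutants, and its interval was −0.06 to 0.29.

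None of the 3 transcription factors passed the limma threshold between Fzd3 mutant and control, and 1 of them, *Rfx3*, had an unadjusted *P* below 0.05 (beside 41.4% of all genes). *Rfx3*, known from work on neural and nodal cilia, was at 87.7, 91.1 and 83.5 CPM in control cortex, 93.2, 90.7 and 108 CPM in the Fzd3 mutants and 87.0, 89.5 and 84.7 CPM in the Celsr3 mutants. Fzd3 mutant 3 was the highest of the 9 libraries and the others overlapped, with a difference of 0.15 (s.e. 0.0645, adjusted *P* = 0.101). *Rfx2* was at 3.24, 3.32 and 4.74 CPM in control cortex, 2.14, 2.68 and 3.46 CPM in the Fzd3 mutants and 3.59, 4.74 and 4.23 CPM in the Celsr3 mutants. The libraries of each genotype spread widely, and Fzd3 mutant minus control was −0.39 (s.e. 0.181, adjusted *P* = 0.128), which passed without Fzd3 mutant 3 (adjusted *P* = 0.0478). *Foxj1* was at 2.47, 2.45 and 2.53 CPM in control cortex, 1.86, 2.09 and 2.41 CPM in the Fzd3 mutants and 2.14, 2.41 and 2.65 CPM in the Celsr3 mutants. All 3 Fzd3 libraries were below the controls, although Fzd3 mutant 3 nearly reached them, and the interval of the difference was −0.48 to 0.10.

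**Figure D3:**
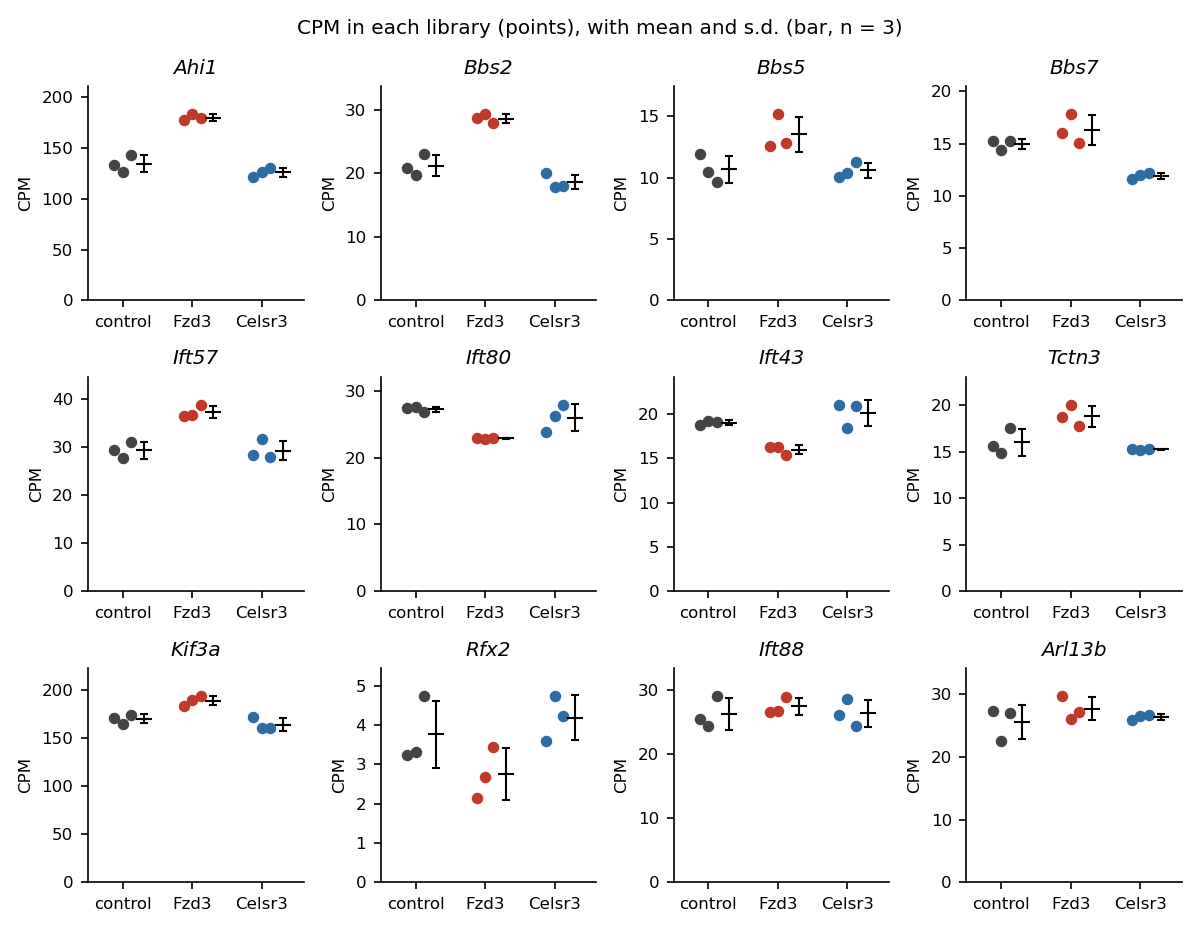
CPM of 12 members in each of the 9 libraries by genotype (points), with mean and s.d. (n = 3) beside them and axes from 0. *Ahi1* lies at 177 to 183 CPM in the Fzd3 mutants and at 121 to 143 CPM in the other 6 libraries, whereas *Ift88* overlaps between genotypes.

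In the Celsr3 mutant 0 of the 41 members passed the limma threshold, beside 0.307% of all genes (45 of 14670). An unadjusted *P* below 0.05 was reached by 3 members, *Bbs2*, *Bbs7* and *Ift27*, beside 5.45% of all genes. The Celsr3 and control libraries did not overlap for 1 member (2.44%), beside 10.4% of all genes. Both shares describe a table in which few genes differ between these genotypes. Member differences ran from −0.32 to 0.15 with a median of −0.01, and the outermost 95% limits over all 41 were −0.49 and 0.54. The count of 0 held in each of the 20 alternatives.

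The member whose libraries did not overlap was *Bbs7*, another BBSome subunit, whose promoter carries one of the facing pairs shown above. It was at 15.2, 14.4 and 15.3 CPM in control cortex, 16.0, 17.8 and 15.0 CPM in the Fzd3 mutants and 11.6, 12.03 and 12.1 CPM in the Celsr3 mutants. All 3 Celsr3 libraries were the lowest of the 9, close together and clear of the rest. The difference from control was −0.32 (s.e. 0.0776, adjusted *P* = 0.284), with an interval of −0.49 to −0.15, and the adjusted *P* ran from 0.211 to 0.813 over the alternatives. *Bbs2* was −0.18 from control with an interval of −0.34 to −0.02, and its libraries overlapped. For *Ift27*, which links the B complex to the BBSome and is named because it is 1 of these 3, the difference was −0.21 with an interval of −0.41 to −0.01. Of the other 3 members whose calls in the Fzd3 mutant held in all alternatives, *Ahi1* had an interval of −0.20 to 0.02 here, *Ift57* of −0.15 to 0.14 and *Ift80* of −0.21 to 0.07.

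The mutants were also compared directly, a test that asks whether the losses differ from each other. Between Fzd3 and Celsr3 mutants, 14 of 41 members (34.1%) differed, beside 29.6% of all genes. There were 9 higher in the Fzd3 mutant (22.0%, beside 15.3%) and 5 lower (12.2%, beside 14.3%), and the libraries did not overlap for 19 (46.3%, beside 44.9%). These shares too are near the background. The member count was 8 without Celsr3 mutant 2 (19.5%, beside 21.8% of all genes in that fit) and 10 to 14 without any other single library. It was 10 without the *Xist*-poor libraries (24.4%, beside 22.7% of all genes) and 10 without Celsr3 mutant 4 (24.4%, beside 21.4%). With the replicate block, which also removes Celsr3 mutant 4 from this comparison, it was 5 (12.2%, beside 14.3%). Of the 14 calls, 3 (*Ahi1*, *Bbs2* and *Bbs7*) held under all 20 alternatives, and 7 under every leave-one-out.

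*Bbs2* showed the largest of these differences, 0.61 (s.e. 0.0724, adjusted *P* = 0.00023), with every Fzd3 library above every Celsr3 library. Among the members higher in the Fzd3 mutant, *Ahi1* followed at 0.51 (s.e. 0.0498, adjusted *P* = 6.64e-05). *Bbs7* was higher in the Fzd3 mutant by 0.43 (s.e. 0.0776, adjusted *P* = 0.00217), although Fzd3 and control libraries overlapped for it. Against control, *Bbs7* was at −0.32 in the Celsr3 mutant and at 0.12 in the Fzd3 mutant, and neither difference passed the threshold. *Ift57* differed by 0.34 (s.e. 0.0667, adjusted *P* = 0.00328), lost with the replicate block (0.0529). *Bbs5* differed by 0.34 (s.e. 0.102, adjusted *P* = 0.029), a call lost without Fzd3 mutant 2 (adjusted *P* = 0.118), Celsr3 mutant 1 (0.0821) or Celsr3 mutant 2 (0.0808), and without moderation (0.0669) or without the *Xist*-poor libraries (0.0716). *Tctn3* was higher by 0.29 (s.e. 0.0785, adjusted *P* = 0.0177), lost without Fzd3 mutant 2 (adjusted *P* = 0.0741) or Celsr3 mutant 2 (0.0514), and with the replicate block (0.124). Lower in the Fzd3 mutant were *Ift43*, at −0.32 (s.e. 0.0693, adjusted *P* = 0.00572), and *Rfx2*, at −0.54 (s.e. 0.181, adjusted *P* = 0.045). The *Ift43* call was lost with the replicate block (0.0771). The *Rfx2* call was lost without control 1 (adjusted *P* = 0.0534), Fzd3 mutant 1 (0.166), Fzd3 mutant 2 (0.106), Celsr3 mutant 2 (0.144) or Celsr3 mutant 4 (0.103), and without the variance trend (0.0586), without moderation (0.116) or without the *Xist*-poor libraries (0.106).

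The other 6 members called between the mutants had smaller or less stable differences. *Kif3a* (0.20) and *Ift81* (0.24) were higher in the Fzd3 mutant and kept their calls under each leave-one-out, but both lost them with the replicate block (adjusted *P* = 0.0758 and 0.0758). *Kif3b* (0.20) was lost without Fzd3 mutant 1 (adjusted *P* = 0.0529) or Celsr3 mutant 4 (0.0527), and with the replicate block (0.115). *Ift46* (−0.22) was lost without Fzd3 mutant 3 (adjusted *P* = 0.0592) or Celsr3 mutant 2 (0.0675), and with the replicate block (0.0714) or without moderation (0.0692). *Cep290* (−0.32), whose libraries overlapped, was lost without Fzd3 mutant 1 (adjusted *P* = 0.132), Fzd3 mutant 2 (0.12), Celsr3 mutant 2 (0.122) or Celsr3 mutant 4 (0.0721), and with only the 6 libraries compared (0.0549), with the replicate block (0.0602), without the variance trend (0.0666), without moderation (0.115) or without the *Xist*-poor libraries (0.133). The last, *Bbs9* (−0.19), was lost without Fzd3 mutant 1 (adjusted *P* = 0.122), Fzd3 mutant 2 (0.085), Celsr3 mutant 1 (0.0719), Celsr3 mutant 2 (0.0622) or Celsr3 mutant 4 (0.116), and with the replicate block (0.109) or without the *Xist*-poor libraries (0.0555). It and the other members outside the largest differences were named after their values were seen. *Ift80* passed only without Celsr3 mutant 1 (adjusted *P* = 0.0192). *Rpgrip1l* (adjusted *P* = 0.0315) passed only without Fzd3 mutant 2.

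Other genes of the same machinery, which the naming rule does not reach, were read from 8 lists. Together 84 listed genes were in them, of which 21 (25.0%) passed in the Fzd3 mutant, beside 29.8% of all genes. An unadjusted *P* below 0.05 was reached there by 29 of the 84 (34.5%), beside 41.4% of all genes. The lists are short, and their counts describe single genes. The most abundant gene of a list is the one with the highest mean CPM in the controls, without correction for length. That gene and the largest called difference were named by rule, and any further gene of a list was chosen after its values were seen. Of the 11 further transport subunits listed, *Ttc30b* rose by 0.50 (s.e. 0.0807, adjusted *P* = 0.00107) in the Fzd3 mutant and *Ttc30a2* fell, at −0.61 (s.e. 0.106, adjusted *P* = 0.00175). These are near-identical copies, so the division of reads between them is uncertain, and *Cluap1* and *Rabl4* were not listed. The most abundant of that list, *Wdr35*, was at 52.6, 46.0 and 51.8 CPM in control cortex, 48.9, 49.1 and 49.7 CPM in the Fzd3 mutants and 49.6, 49.0 and 51.0 CPM in the Celsr3 mutants, with overlapping genotypes.

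Of 6 further motor chains, 2 (33.3%, beside 15.0% of all genes) rose. *Kifap3*, the non-motor subunit that joins *Kif3a* and *Kif3b* in kinesin-2, was at 310.5, 292 and 337 CPM in control cortex, 373, 357 and 356 CPM in the Fzd3 mutants and 317, 299 and 295 CPM in the Celsr3 mutants. The Fzd3 libraries were the 3 highest, as for the other subunits of this motor, and the rise was 0.21 (s.e. 0.0527, adjusted *P* = 0.0117), lost without Fzd3 mutant 1 (adjusted *P* = 0.0522). *Dync2li1*, a light intermediate chain of the return dynein, was at 16.4, 15.6 and 18.9 CPM in control cortex, 25.0, 23.7 and 19.2 CPM in the Fzd3 mutants and 16.2, 16.7 and 16.6 CPM in the Celsr3 mutants. All 3 Fzd3 libraries were above the other 6, Fzd3 mutant 3 only just, and the rise of 0.40 (s.e. 0.101, adjusted *P* = 0.0124) was lost without control 2 (adjusted *P* = 0.0505), Fzd3 mutant 1 (0.0573) or Fzd3 mutant 2 (0.0506). The count of this list was accordingly 1 without control 2, 0 without Fzd3 mutant 1 and 1 without Fzd3 mutant 2.

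Among BBS-linked genes under other symbols, 0 of 7 passed by limma, beside 29.8% of all genes, with 1 at an unadjusted *P* below 0.05, and *Trim32* was the most abundant at 112, 117 and 118 CPM in control cortex, 128, 122 and 118 CPM in the Fzd3 mutants and 114, 112 and 112 CPM in the Celsr3 mutants. The count was 1 without control 3. Of 14 further transition zone and nephronophthisis genes, the most abundant was *Cspp1*, which did not pass, at 0.03 (s.e. 0.0623, adjusted *P* = 0.783). Only 1 of these 14 (7.14%, beside 15.0% of all genes) rose. This was *Anks6*, by 0.26 (s.e. 0.0817, adjusted *P* = 0.0313). This call was lost without control 1 (adjusted *P* = 0.106), control 2 (0.0810), Fzd3 mutant 1 (0.101) or Fzd3 mutant 2 (0.0858). The count of the list was 0 without control 1, control 2 or Fzd3 mutant 2, and 2 without control 3 or Fzd3 mutant 3. Of 9 listed genes of membrane traffic, 1 rose and 2 fell (33.3% together, beside 29.8%), and *Rpgr* was not listed. *Rab28* fell, at −0.24 (s.e. 0.0458, adjusted *P* = 0.00281), and so did *Unc119b* (−0.21), lost without control 2 (adjusted *P* = 0.0702) or Fzd3 mutant 1 (0.0750). *Rab11a*, a recycling endosome GTPase and the most abundant of the list, rose by 0.15 (s.e. 0.0496, adjusted *P* = 0.0396), and leaving out any 1 of 7 libraries ended its call, with adjusted *P* of 0.0512 to 0.145. Those were control 2, control 3, all 3 Fzd3 mutants and Celsr3 mutants 2 and 4. The count of this list was 1 without control 2 or Fzd3 mutant 1.

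Regulators and centriole genes include those that progenitors use to build centrioles. Of 7 listed RFX and multiciliation regulators, 3 (42.9%, beside 14.8% of all genes) fell and 0 rose (limma, 4 with an unadjusted *P* below 0.05), and *Mcidas*, *Gmnc* and *Ccno* were not listed. *Rfx4*, a factor of neural progenitors, was at 10.2, 10.2 and 8.68 CPM in control cortex, 7.27, 5.90 and 6.76 CPM in the Fzd3 mutants and 8.48, 8.36 and 9.24 CPM in the Celsr3 mutants. Fzd3 mutants held the 3 lowest values, a fall of 0.51 (s.e. 0.104, adjusted *P* = 0.00396). *E2f4* (−0.29) and *E2f5* (−0.33), which act in the cell cycle and in multiciliation, also fell, and the call for *E2f4* was lost without control 1 (adjusted *P* = 0.0519). *Rfx7* was the most abundant of the list and did not pass, at −0.13 (s.e. 0.0720, adjusted *P* = 0.214). Of 16 listed centriole and distal appendage genes, 5 (31.2%, beside 14.8% of all genes) fell and 0 rose (limma, 7 with an unadjusted *P* below 0.05). *Stil*, which dividing cells need to duplicate centrioles, was at 14.3, 11.5 and 10.8 CPM in control cortex, 7.48, 7.82 and 6.26 CPM in the Fzd3 mutants and 10.5, 10.9 and 12.3 CPM in the Celsr3 mutants. The Fzd3 libraries were the 3 lowest, a fall of 0.72 (s.e. 0.121, adjusted *P* = 0.00138). *Plk4* (−0.47), *Cenpj* (−0.49) and *Cep152* (−0.37) serve the same step and fell. The fifth was *Cep164* (−0.28), lost without control 2 (adjusted *P* = 0.0608) or Fzd3 mutant 2 (0.0605). *Pcm1*, the most abundant, did not pass, at −0.04 (s.e. 0.0529, adjusted *P* = 0.594).

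Structural genes of motile cilia were at low levels. Only 14 of 36 on the list were in the table, of which 5 (35.7%, beside 15.0% of all genes) rose and 0 fell in the Fzd3 mutant (limma, 7 with an unadjusted *P* below 0.05). The lowest mean over the 9 libraries of any gene in the table was 0.540 CPM. Genes near that level may be listed only through the genotype where they are higher, and the effect of this on the count was not tested. The outer arm dynein gene *Dnah5* was at 1.04, 0.525 and 1.23 CPM in control cortex, 2.79, 2.53 and 2.67 CPM in the Fzd3 mutants and 1.57, 1.14 and 0.982 CPM in the Celsr3 mutants. All 3 Fzd3 libraries were the highest, and the rise was 1.18 (s.e. 0.205, adjusted *P* = 0.00169). The others were *Spag6* (0.68), *Dnah6* (0.62), *Rsph9* (0.52) and *Ccdc39* (0.39). *Dnah6* was lost without control 1 (adjusted *P* = 0.0522), control 2 (0.0575) or Fzd3 mutant 1 (0.0828). *Tekt2*, the most abundant of the list, did not pass, at −0.10 (s.e. 0.117, adjusted *P* = 0.562). Choroid plexus, a tissue rich in motile cilia, was represented by *Enpp2* alone, at 9.33, 7.92 and 10.8 CPM in control cortex, 10.9, 11.6 and 8.09 CPM in the Fzd3 mutants and 9.64, 8.93 and 16.9 CPM in the Celsr3 mutants, and it did not pass in either mutant by limma (unadjusted *P* below 0.05 in 0 comparisons with control). Its defining markers *Ttr*, *Kl*, *Folr1*, *Clic6*, *Kcnj13*, *Otx2*, *Aqp1* and *Prlr* were not listed. In the Celsr3 mutant 0 of the 84 genes of these lists passed by limma, with 5 (5.95%, beside 5.45% of all genes) at an unadjusted *P* below 0.05.

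**Figure D4:**
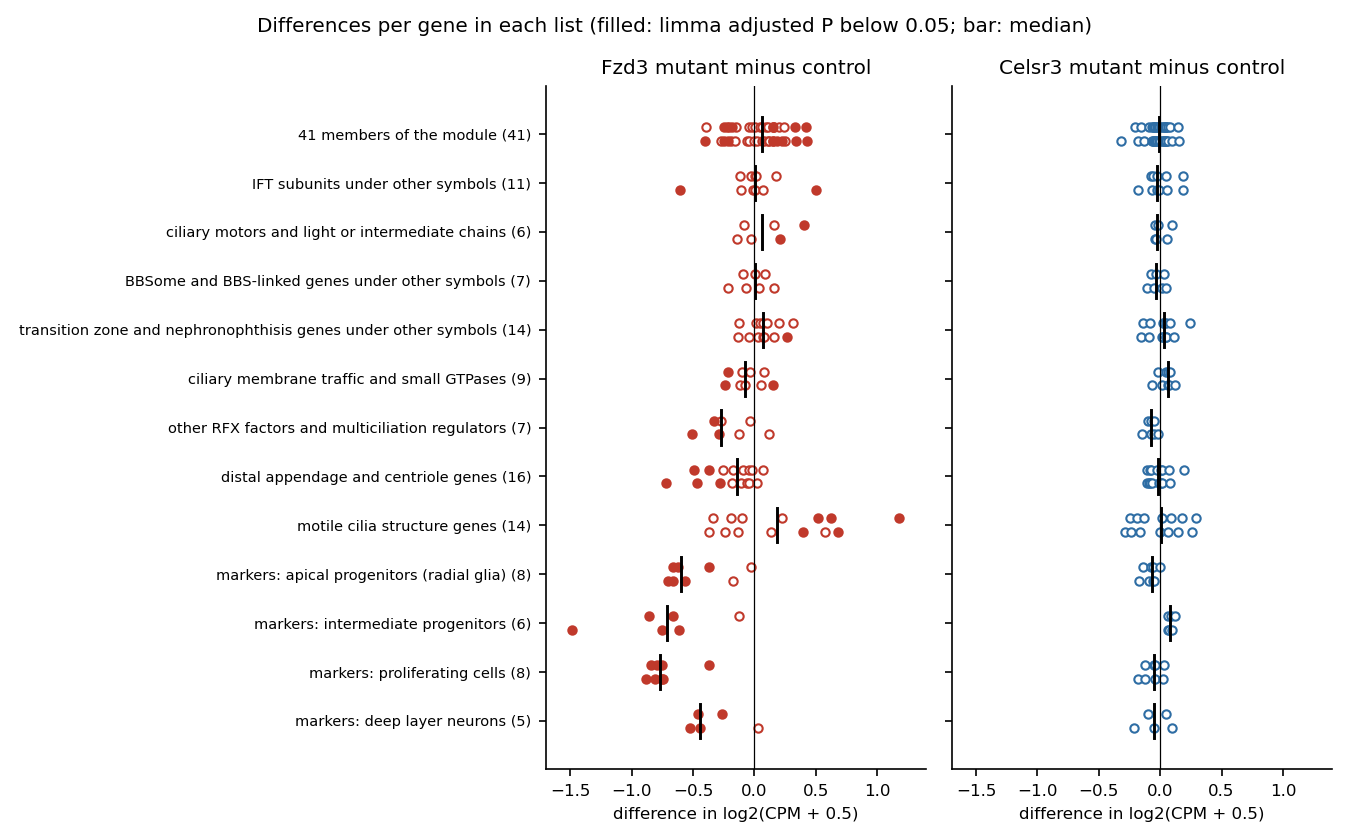
Difference in log2(CPM + 0.5) per gene for the 41 members, 8 lists of other ciliary genes and 4 marker lists, Fzd3 mutant minus control (left) and Celsr3 mutant minus control (right), with filled points for an adjusted *P* below 0.05 and a bar at each median. All 8 proliferation markers are filled on the left, with a median of −0.77, and 0 on the right.

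Markers of cell types moved in the Fzd3 mutant alongside these genes, and their part in the ciliary results was not tested. Over the 13 lists, 39 of 77 marker genes (50.6%) passed, beside 29.8% of all genes. All 8 markers of proliferating cells fell, beside 14.8% of all genes, with a median of −0.77. They summed to 887, 951 and 805 CPM in control cortex, 495, 524 and 576 CPM in the Fzd3 mutants and 793, 859.6 and 911 CPM in the Celsr3 mutants, so each Fzd3 library was far below the other 6. *Top2a* was their most abundant gene, and *Ccnb1* the one that fell most, at −0.89 (s.e. 0.0671, adjusted *P* = 8.78e-06). Of 8 markers of apical progenitors, the cells whose cilia face the ventricle, 6 fell and the median was −0.59. Their sums were 1354, 1403 and 1371 CPM in control cortex, 1043, 1103 and 986 CPM in the Fzd3 mutants and 1234, 1267 and 1345 CPM in the Celsr3 mutants. *Vim* was the most abundant, and the fall of *Pax6* was 0.70 (s.e. 0.0777, adjusted *P* = 0.00012). The count of called apical progenitor markers was 5 or 6 when any 1 library was left out. Of 6 markers of intermediate progenitors, 5 fell, and the list summed to 501, 517 and 451 CPM in control cortex, 331, 342 and 380.2 CPM in the Fzd3 mutants and 469.8, 531 and 549.6 CPM in the Celsr3 mutants. Its most abundant gene was *Eomes*, and *Neurog1* fell most, at −1.49 (s.e. 0.245, adjusted *P* = 0.00126).

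Neuronal markers were read from further lists in the Fzd3 mutant, where 14.8% of all genes fell. Of 5 deep layer markers 4 fell, with sums of 1123, 1187 and 981 CPM in control cortex, 828, 794 and 869 CPM in the Fzd3 mutants and 1047, 1059 and 1053 CPM in the Celsr3 mutants, and the most abundant, *Sox5*, fell by 0.52 (s.e. 0.108, adjusted *P* = 0.0044). By limma 0 of 8 listed interneuron markers passed (0 with an unadjusted *P* below 0.05, and 1 called without Fzd3 mutant 3), with sums of 239, 237 and 270.3 CPM in control cortex, 284, 262 and 219.6 CPM in the Fzd3 mutants and 239, 203 and 188 CPM in the Celsr3 mutants. *Dlx1* led that list and *Nkx2-1* was not in the table. Of the 7 cortical markers 6 fell, with a median of −0.22 and sums of 2304, 2387 and 2147 CPM in control cortex, 1943, 1989 and 1972 CPM in the Fzd3 mutants and 2379, 2390.0 and 2392 CPM in the Celsr3 mutants. The count was 3 without control 2 or Fzd3 mutant 1. *Emx1* fell most, at −0.42 (s.e. 0.101, adjusted *P* = 0.00963).

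Some markers of rarer cells were higher in the Fzd3 mutant, where 15.0% of all genes rose and 14.8% fell. Of 5 oligodendrocyte precursor markers 3 rose (*Olig1*, *Olig2* and *Pdgfra*), and the sums were 29.4, 27.6 and 39.1 CPM in control cortex, 71.2, 62.6 and 38.0 CPM in the Fzd3 mutants and 36.9, 26.9 and 32.2 CPM in the Celsr3 mutants. *Pdgfra* was the most abundant and *Olig1* rose most, by 1.08 (s.e. 0.217, adjusted *P* = 0.00375). The count was 1 without control 1, control 2, Fzd3 mutant 1 or Fzd3 mutant 2. Of 8 vascular markers 3 rose, with sums of 145, 145 and 146 CPM in control cortex, 200.4, 195 and 175 CPM in the Fzd3 mutants and 159.5, 139.9 and 198 CPM in the Celsr3 mutants, *Rgs5* the most abundant and *Flt1* the largest rise at 0.85 (s.e. 0.121, adjusted *P* = 0.00054). Of 7 microglial markers 3 rose, with sums of 33.6, 38.8 and 36.8 CPM in control cortex, 58.9, 55.2 and 40.99 CPM in the Fzd3 mutants and 37.4, 39.98 and 48.4 CPM in the Celsr3 mutants. *Csf1r* was the most abundant and *Trem2* rose most, by 1.00 (s.e. 0.166, adjusted *P* = 0.00128). The count of called microglial markers ran from 2 to 4 when any 1 library was left out. Of 6 red blood cell genes only *Hbb-y* fell, at −1.05 (s.e. 0.328, adjusted *P* = 0.0331), a call lost without any one of control 1, control 2 or the 3 Fzd3 mutants (adjusted *P* of 0.0521 to 0.127). They summed to 1765, 1917 and 2039 CPM in control cortex, 2285, 2443 and 1569 CPM in the Fzd3 mutants and 2416, 1584 and 2536 CPM in the Celsr3 mutants, led by *Hba-a1*. By limma 0 of the 4 meningeal markers passed (1 with an unadjusted *P* below 0.05), and 2 passed without Celsr3 mutant 4. No listed marker was at 0 in any library. In the Celsr3 mutant 0 of the 77 marker genes passed by limma, with 15 (19.5%, beside 5.45% of all genes) at an unadjusted *P* below 0.05.

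The members are spread over 16 chromosomes and 0 lie on the X chromosome, where *Xist* differed between libraries. *Ift88* lies within 10 Mb of a mutated gene, at 7.67 Mb from *Fzd3* on chromosome 14. Flanking sequence from the strain of the mutated allele could differ there, and *Ift88* did not pass in the Fzd3 mutant.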

How the data were processed

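The authors deposited 1 table of CPM for 14670 genes in 9 E16.5 cortex libraries, 3 per genotype. The submitters' processing notes name FastQC, TopHat, Bowtie, TopHat2, Cufflinks 2.1.1 and edgeR 2.12, and the builds GRCm38 and GRCh37, without roles. The annotation and the strand setting are not given in the sources used here, so reads of genes whose exons overlap another gene, as in 7 members, may be shared. Column totals ran from 990141 to 1012200 CPM. A minimum mean of 0.5 CPM removed 0 genes.

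log2(CPM + 0.5) was fitted with limma 3.58.1 (R 4.3.3), a mean per genotype and trended moderation, two-sided, adjusted over all genes at 0.05. The scripts were checked and tested on simulated data with rises larger than those of the members against control. This checks the code and does not bear on calls of small differences. With 3 against 3 libraries an exact permutation test cannot go below 0.1, so none is given. Tables and figures used Python 3.11.15, numpy 2.4.6, pandas 2.3.3, scipy 1.17.1 and matplotlib 3.10.9. Exon lengths and positions are from GENCODE M21 (GRCm38), and promoters from RefSeq (GRCm38.p6).

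Named were, per comparison, the 8 called members with the largest differences whose libraries did not overlap, the highest and lowest member per kb in each role, the transcription factors, motors, *Arl13b* and *Ift88*, and in each other list the most abundant gene and the largest called difference. Other lists covered further transport subunits, motor chains, BBS-linked, transition zone and nephronophthisis, membrane traffic, regulator, centriole and motile cilia genes and 13 sets of cell markers. The results for some single genes and 1 marker list are not reported here. The members and lists were chosen with earlier results of these data known. Alternatives changed the pseudocount (0.1 or 1 CPM), the filter (none or 5 CPM), the scaling, the libraries fitted, the replicate block and the moderation, left out each library in turn and, added after seeing the data, left out the libraries with little *Xist*.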

Additional observations from a re-analysis of the deposited data

How the results depend on the processing

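Counts of called members and of all called genes stayed within 1.5 times their values under most of the 20 alternatives, and no called member changed direction. Without moderation, called members in Fzd3 mutant against control numbered 7 and all called genes in Celsr3 mutant against control 24. With the replicate block, which pairs libraries by number, all called genes were 29 in Celsr3 mutant against control and 2101 in Fzd3 mutant against Celsr3 mutant, and called members were 5 in the latter. In Fzd3 mutant against control, the block gave 9 members and 3629 genes. Same-numbered libraries did not resemble each other after genotype means were removed (correlations of −0.20 to 0.19 over genes), so the numbers are not evidence of pairing. Celsr3 mutant 4 shares its number with no other library, so the block also removes it from both Celsr3 comparisons, and the cause of these shifts was not tested. Leaving out 1 library gave 5 to 11 members in Fzd3 mutant against control, 0 in Celsr3 mutant against control and 8 to 14 between the mutants. Rescaling to equal totals gave 9 members higher and 4 lower in the Fzd3 mutant in place of 8 and 5. With 3 libraries per genotype, many intervals include modest changes.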
